A study of Rattus norvegicus with 32 samples.

Results

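The libraries titled M21 to M26 were the last of 4 runs of consecutive sample titles labelled pre- or post-transplant in a study of rat liver transplantation and macrosteatosis, a state in which hepatocytes hold large fat droplets. M24, M25 and M26 were labelled as livers after transplantation and M21, M22 and M23 as livers before it. They were chosen by title alone and made up 6 of the 32 samples of the series. Male Lewis rats, which are inbred, gave all the livers, and no allele, drug or other treatment is named for either group. They were set beside 8 other post-transplant and 8 other pre-transplant libraries from the title runs M2-M7, M8-M13 and M15-M20, which come from the same strain and sex. A further 8 libraries, M101 to M108, were labelled as long-term survivors and entered only as an alternative fit. The labels give neither fat content nor the time after transplantation, the donor and recipient of a graft, or what the libraries of 1 title run share, so a title run is used here only as a stretch of titles. Nor do the labels tie each library to its own animal, so that p-values reflect the scatter of these libraries, part of which may be technical.

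Expression is given as FPKM, fragments per kilobase of gene length, scaled to the size of the library, as the authors deposited it. Reads assigned to genes, recovered from the steps in these values, numbered 16149228 to 18464388 in M24 to M26 and 15803447 to 19311664 in M21 to M23, and the other post- and pre-transplant libraries lay between 15372950 and 18760991. The values hold a scaling by the authors, whose factors were 0.709 to 0.922 in M24 to M26 and 1.08 to 1.19 in M21 to M23, so the scaling moved with the comparison. Median-of-ratios factors computed on the deposited values were 0.984 to 1.01, so that the alternative with these factors is nearly the authors' own scaling and does not test it. The hepatocyte markers Alb and Ttr, which encode albumin and transthyretin, were present throughout, as were the hepatocyte markers Apoa1 and Cps1. Alb was at 13283, 10768 and 16645 FPKM in M24, M25 and M26, against 46949, 69238 and 56513 FPKM in M21, M22 and M23. Apoa1 was at 1881, 1493 and 1046 FPKM in M24, M25 and M26 and 1241, 1140 and 2164 FPKM in M21, M22 and M23. Cps1 was at 811, 298 and 254 FPKM in M24, M25 and M26 and 1072, 479 and 407.5 FPKM in M21, M22 and M23. For Apoa1 and Cps1 the groups overlapped.

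A transplanted liver loses its blood supply, is cooled and is then reperfused. In injured liver, hepatocytes turn from metabolic and secretory genes to acute phase proteins, resident macrophages (Kupffer cells) sense the damage, and neutrophils and monocytes enter from the blood. Interferons of types I and II, released by infected or activated cells, induce a shared set of antiviral and antigen presentation genes through STAT and IRF transcription factors, and type II interferon from T and NK cells is the classical inducer of the chemokine Cxcl9 and of guanylate binding proteins such as Gbp2.

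The first comparison asked what differed between the livers of M21 to M26 after and before transplantation. Of 12820 genes tested, 2461 were higher (19.2%) and 2384 lower (18.6%) in M24 to M26 than in M21 to M23, 37.8% in all, at an adjusted p under 0.05 from limma with Benjamini-Hochberg adjustment, in 1 fit with the other post- and pre-transplant libraries. All changes below are log2 differences of log2(FPKM + 1) ± SE from that fit, a scale on which changes of weakly expressed genes come out too small, and all adjusted p-values are from it. The median change over all genes was -0.0029. The shares of 19.2% higher, 18.6% lower and 37.8% in all are the background for each count of list members called below. The same test called 2683 genes (20.9%) in M2-M7, 2011 (15.7%) in M8-M13 and 46 (0.359%) in M15-M20, which differ in their number of libraries. The median size of a gene's change was 0.415 log2 units in M21-M26, 0.342 in M2-M7, 0.3 in M8-M13 and 0.241 in M15-M20. On dimension 1 of multidimensional scaling, M20 lay at 0.277, between the pre-transplant libraries of its run (0.0437 and 0.794). M18 and M19, the other post-transplant libraries of that run, lay at -0.823 and -0.380. The cause of the low count in M15-M20 was not tested. Of the 4845 genes called in M21-M26, 96.5% changed in the same direction in M2-M7, 97.5% in M8-M13 and 82% in M15-M20, and 3814 did so in all of these runs. Since these genes were chosen by their change in M21-M26, the size of their change there is not set against that in the other runs.

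**Figure D1:**
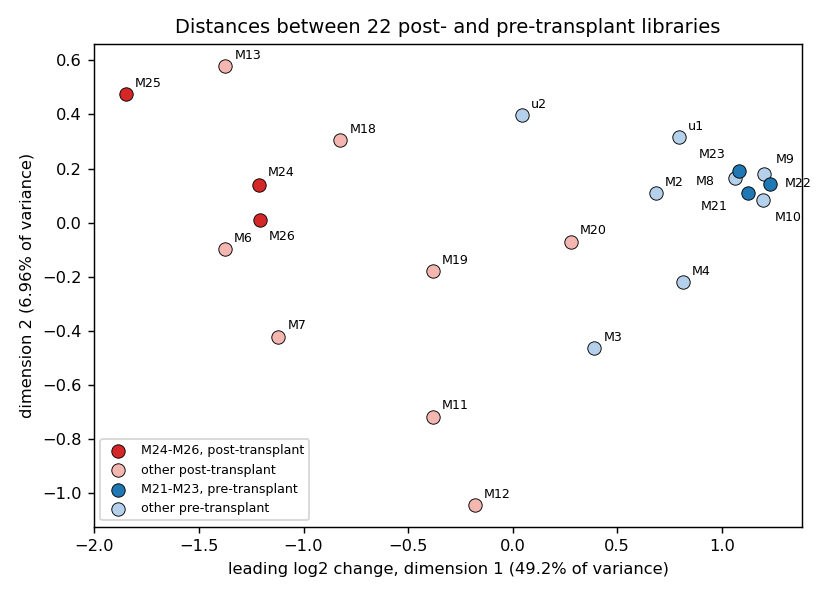
Multidimensional scaling of 22 libraries on the 1000 genes with the greatest log2 distance in each pair; each point is 1 library, and both axes are leading log2 change. M25 lies farthest from M21, M22 and M23 on dimension 1 (49.2% of variance), at -1.848. M24 (-1.213) and M26 (-1.208) lie among the other post-transplant libraries, of which M6 (-1.377) and M13 (-1.374) are farther out. The other post-transplant libraries reach to M20, which lies nearest to the pre-transplant libraries.

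Genes known from neutrophils, macrophages and the acute phase response were among the greatest rises. Lcn2 (ENSRNOG00000013973, chr3:11414186-11417546; coordinates here are those of the deposited table), the gene of lipocalin 2, a protein of neutrophils and injured epithelia that binds bacterial siderophores, was at 9468, 5785 and 3482 FPKM in M24, M25 and M26, against 2.34, 1.55 and 1.76 FPKM in M21, M22 and M23. Its change was 10.97 ± 1.46 (adjusted p = 6.56e-05), the greatest rise of the run. Each of the 3 post-transplant libraries lay far above each pre-transplant one, with M24 the highest. Lcn2 is counted below with the acute phase response, and which cells held its RNA was not tested. S100a9 (ENSRNOG00000011483, chr2:190097554-190100276), a calprotectin subunit of neutrophils and monocytes, was at 104.2, 206 and 47.6 FPKM in M24, M25 and M26 and 0.788, 1.31 and 0.529 FPKM in M21, M22 and M23, a change of 5.79 ± 0.66 (adjusted p = 3.13e-05). Its partner S100a8 (ENSRNOG00000011557, chr2:190073815-190074354) was at 123, 153 and 22.5 FPKM in M24, M25 and M26 and 0.736, 0.366 and 0.741 FPKM in M21, M22 and M23, a change of 5.58 ± 0.80 (adjusted p = 0.0001). For both genes M26 was the lowest of the post-transplant libraries and still far above M21 to M23. Lyz2 (ENSRNOG00000005825, chr7:60335969-60341264), lysozyme of myeloid cells, was at 630.0, 1790.4 and 598 FPKM in M24, M25 and M26 and 10.9, 12.2 and 13.9 FPKM in M21, M22 and M23 (change 6.04 ± 0.74, adjusted p = 4.43e-05). M25 held more of it than M24 and M26 together, and more than any of the 8 other post-transplant libraries (84.7 to 1069.9 FPKM).

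Of 20 neutrophil markers in the table, 12 passed the filter on low values, and these 12 were all called higher, with a median change of 3.11, where the share called higher over all genes was 19.2%. A gene that passes the filter only through its post-transplant values had to differ, so this count, like that of other lists with genes near 0 before transplantation, is a description and no support. Ltf and Defa5 were listed at 0 in all 6 libraries. Fth1, the ferritin heavy chain gene of another list, was at 0 in all 6 as well, so a listed 0 need not mean absent RNA. M25 held the highest value of the 3 post-transplant libraries for 12 of 12 neutrophil markers, and of all 11 post-transplant libraries for 8. Summed over the list, FPKM were 934, 2380.0 and 765 in M24, M25 and M26 and at most 21 FPKM in M21 to M23. Ncf4 and Ncf1, subunits of the phagocyte NADPH oxidase, rose by 3.30 ± 0.29 and 4.42 ± 0.55. Ncf1 was at 28.4, 98.6 and 34.02 FPKM in M24, M25 and M26, against 1.08, 1.03 and 1.49 FPKM in M21, M22 and M23, so that M25 stood well above the other 2 while the groups did not overlap.

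Markers of monocytes and recruited macrophages rose in 19 of 21 tested members (median 2.19), and Kupffer cell markers in 10 of 14 (median 1.45). None was lower in either list, where 19.2% of all genes were called higher and 18.6% lower. Cybb, the catalytic subunit of the phagocyte oxidase, was at 64.4, 113 and 90.7 FPKM in M24, M25 and M26 and 6.94, 5.43 and 7.45 FPKM in M21, M22 and M23, a change of 3.54 ± 0.33 (adjusted p = 1.05e-05). Tyrobp, an adaptor of activating receptors on myeloid and NK cells, was at 103.3, 282 and 121 FPKM in M24, M25 and M26 and 16.9, 15.8 and 18.5 FPKM in M21, M22 and M23 (change 3.09 ± 0.36, adjusted p = 3.76e-05). Lst1 and Laptm5, expressed in leukocytes, rose by 2.67 ± 0.29 and 2.34 ± 0.26. M25 was the highest of the 3 for 19 of 21 monocyte and macrophage markers and M24 the lowest for 19. Kupffer cell markers ran differently, with M26 the highest for 14 of 14 and M25 the lowest for 11. Marco, a scavenger receptor of resident macrophages, was at 222, 60.1 and 286 FPKM in M24, M25 and M26 and 3.75, 4.38 and 6.81 FPKM in M21, M22 and M23 (change 4.75 ± 0.66, adjusted p = 8.27e-05), with M25 well below M24 and M26. Csf1r, the receptor for macrophage colony stimulating factor, was at 55.4, 67.6 and 96.3 FPKM in M24, M25 and M26 and 11.1, 9.28 and 11.3 FPKM in M21, M22 and M23 (change 2.65 ± 0.30, adjusted p = 3.13e-05), and Folr2, a folate receptor of resident macrophages, rose by 2.71 ± 0.38. Summed Kupffer marker FPKM were 1101, 690.5 and 1999 in M24, M25 and M26, 371 to 445 in M21 to M23 and 931 to 2264 in the other post-transplant libraries, so M25 was below every other post-transplant library. Adgre1, which encodes the macrophage antigen F4/80, was at 30.96, 19.6 and 66.7 FPKM in M24, M25 and M26 and 5.94, 5.47 and 7.13 FPKM in M21, M22 and M23 (change 2.31 ± 0.50, adjusted p = 0.00187). In bulk tissue, more cells of a type and more RNA per cell cannot be told apart.

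Gpnmb (ENSRNOG00000008816, chr4:78694447-78715683), a transmembrane glycoprotein of lipid-laden and activated macrophages, was at 73.5, 363 and 63.8 FPKM in M24, M25 and M26 and 3.01, 2.49 and 3.51 FPKM in M21, M22 and M23, a change of 4.92 ± 0.71 (adjusted p = 0.000105). M25 exceeded the other post-transplant libraries of the series, which lay at 11.2 to 133 FPKM. Fabp4 (ENSRNOG00000010805, chr2:93792601-93797305), a fatty acid carrier of macrophages, adipocytes and capillary endothelium, was at 76.9, 90.3 and 28.9 FPKM in M24, M25 and M26 and 0.312, 0.518 and 1.26 FPKM in M21, M22 and M23 (change 5.18 ± 0.60, adjusted p = 3.76e-05). M24 and M25 were above all other post-transplant libraries (10.8 to 72.7 FPKM) and M26 was within their range. The adipocyte genes Adipoq, Plin1 and Lep were listed at 0 in all 6 libraries, which need not mean that their RNA was absent. Wfdc21 (ENSRNOG00000029668, chr10:71047310-71053191), a secreted protein with a whey acidic protein domain, was at 727, 924 and 487 FPKM in M24, M25 and M26 and 19.5, 15.8 and 12.2 FPKM in M21, M22 and M23 (change 5.38 ± 0.59, adjusted p = 2.81e-05). The row of Mir675 (ENSRNOG00000040350, chr1:215745981-215746064), a microRNA whose precursor lies within the imprinted transcript H19 in mouse and human, was at 49.4, 136 and 8.71 FPKM in M24, M25 and M26 and 0, 1.64 and 0 FPKM in M21, M22 and M23 (change 4.87 ± 1.44, adjusted p = 0.0138). Reads on so short a row cannot be told from its host transcript, and the call was lost when voom was run on recovered reads (adjusted p = 0.145) and without M25 (adjusted p = 0.0717).

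**Figure D2:**
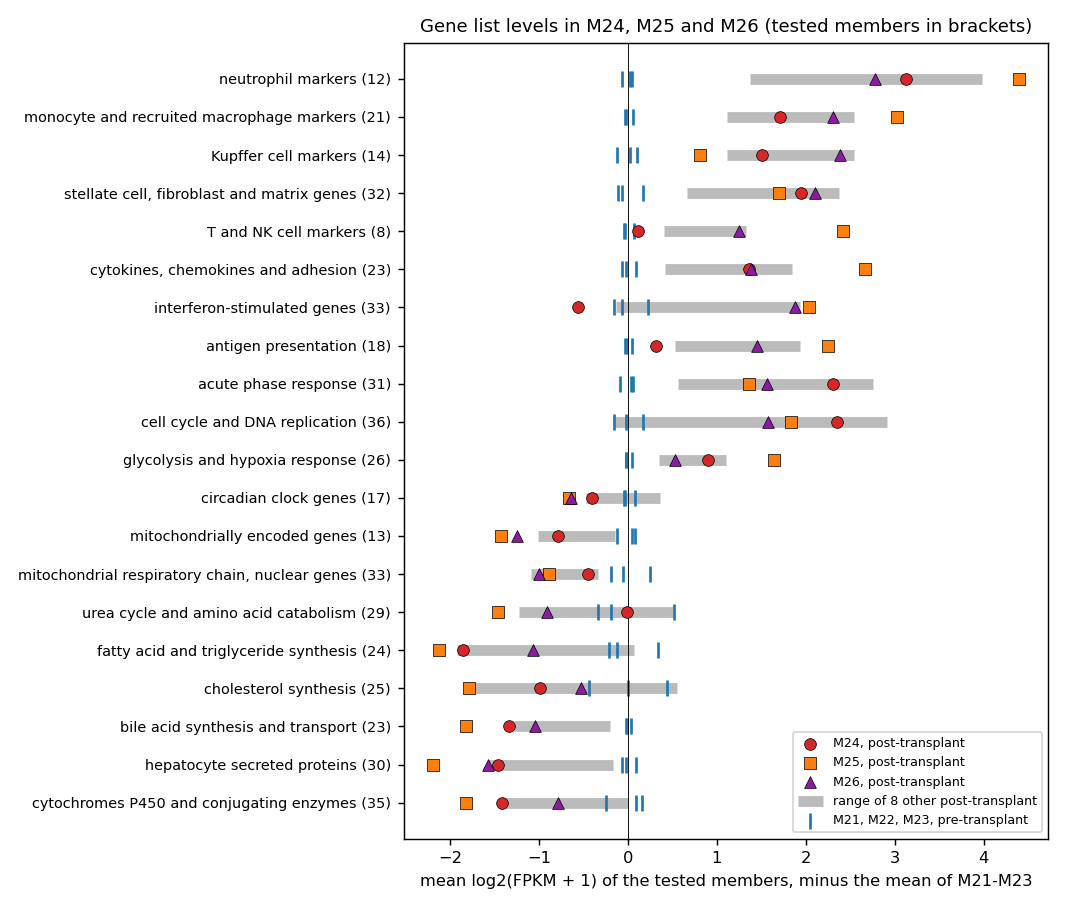
Mean log2(FPKM + 1) of the tested members of 20 gene lists in each library, minus the mean of M21, M22 and M23; symbols are M24, M25 and M26, grey bars the range of the 8 other post-transplant libraries, and blue ticks M21, M22 and M23. M25 lies beyond the grey bar at the high end for neutrophil, monocyte, T and NK cell, antigen presentation, cytokine and glycolysis lists, and M24 lies at the low end for interferon-stimulated genes, below all 3 pre-transplant libraries.

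Cytokine, chemokine and adhesion genes rose in 17 of 23 tested members and fell in 1, against 19.2% and 18.6% of all genes. Il1b, the inflammasome-processed cytokine interleukin 1 beta, was at 54.2, 95.9 and 52.6 FPKM in M24, M25 and M26 and 3.97, 1.98 and 3.48 FPKM in M21, M22 and M23 (change 4.02 ± 0.50, adjusted p = 4.58e-05). Il10, an anti-inflammatory cytokine, was at 5.27, 2.43 and 5.08 FPKM in M24, M25 and M26 and 0.305, 0.304 and 0.0819 FPKM in M21, M22 and M23 (change 2.05 ± 0.33, adjusted p = 0.000236), and here M25 was the lowest of the 3. Cxcl16, a scavenger receptor and chemokine for CXCR6-bearing T cells, and Ccl19, a ligand of CCR7, rose by 2.61 ± 0.35 and 2.65 ± 0.41. For 17 of the 23 cytokine genes M25 was the highest of the 3 post-transplant libraries. Genes of regulated necrosis and the inflammasome rose in 11 of 15, with none lower. Ripk3, the kinase that drives necroptosis, was at 5.44, 17.8 and 9.79 FPKM in M24, M25 and M26 and 1.39, 0.655 and 0.586 FPKM in M21, M22 and M23 (change 2.57 ± 0.38, adjusted p = 0.00014). Nlrc4 and Nlrp3, inflammasome sensors, rose by 2.22 ± 0.32 and 1.32 ± 0.26, and M25 was the highest for 13 of 15 genes of this list.

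The 3 post-transplant libraries differed widely in interferon-stimulated genes. Of 33 tested members, 32 spanned more than 1 log2 unit over M24, M25 and M26, where 16.1% of all genes did. M24 was the lowest of the 3 for 33 of 33, against 36.7% of all genes, and the lowest of all 11 post-transplant libraries for 20. The mean log2 level of the list was 2.48, 5.08 and 4.92 in M24, M25 and M26, 2.88 to 3.26 in M21 to M23 and 2.90 to 4.98 in the other post-transplant libraries. M24 thus lay below every pre-transplant library of the run, and M25 above every other post-transplant library. The test called 7 of 33 members higher and none lower, with a median change of 1.17, a share near the 19.2% of all genes called higher. Without M24 it called 27, without M25 4 and without M13 12, with only the 6 libraries in the fit 2, and with long-term survivors in it 16.

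Irf7 (ENSRNOG00000017414, chr1:214248837-214252456), the transcription factor that amplifies type I interferon production, was at 3.80, 84.1 and 194 FPKM in M24, M25 and M26 and 16.1, 11.3 and 11.98 FPKM in M21, M22 and M23. Its change of 1.62 ± 0.94 (adjusted p = 0.189) did not pass, and without M24 it was 3.20 (adjusted p = 0.00104). Isg15 (ENSRNOG00000021802, chr5:173624310-173626248), a ubiquitin-like modifier, was at 1.63, 60.8 and 69.5 FPKM in M24, M25 and M26 and 7.39, 5.15 and 5.06 FPKM in M21, M22 and M23, with a change of 1.73 ± 0.93 (adjusted p = 0.157) and of 3.28 without M24 (adjusted p = 0.00106). In both genes M24 was below all 3 pre-transplant libraries and M25 and M26 far above them. Mx1 (ENSRNOG00000001959, chr11:37891156-37914983), a dynamin-like antiviral GTPase, was at 0.256, 17.03 and 38.6 FPKM in M24, M25 and M26 and 3.07, 1.94 and 2.04 FPKM in M21, M22 and M23 (change 1.54 ± 0.95, adjusted p = 0.216). Its paralog Mx2 (ENSRNOG00000001963, chr11:38035450-38059950) was at 0.972, 38.5 and 126 FPKM in M24, M25 and M26 and 17.9, 9.22 and 5.94 FPKM in M21, M22 and M23 (change 0.96 ± 1.06, adjusted p = 0.51). These paralogs share sequence, and how the authors' counting split reads between them is not given in the sources used here. Without M24 their changes were 3.01 (adjusted p = 0.00397) and 2.69 (adjusted p = 0.0112).

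Gbp2 (ENSRNOG00000031743, chr2:248276709-248293784), a guanylate binding protein, was at 3.68, 202 and 20.4 FPKM in M24, M25 and M26, against 3.41, 2.09 and 1.94 FPKM in M21, M22 and M23 and 4.42 to 25.1 FPKM in the other post-transplant libraries. Its change was 2.998 ± 0.83 (adjusted p = 0.00933), M25 stood far above the rest, and the call was lost with only the 6 libraries in the fit (adjusted p = 0.102). Cxcl9 (ENSRNOG00000022242, chr14:17228856-17234712), a chemokine that draws CXCR3-bearing T cells, had the greatest range of the run at 2.87, 394 and 16.9 FPKM in M24, M25 and M26, against 7.91, 4.84 and 5.18 FPKM in M21, M22 and M23 and 4.39 to 47.7 FPKM in the other post-transplant libraries. Its change of 2.14 ± 1.11 (adjusted p = 0.141) did not pass, and M24 lay below the pre-transplant libraries. RGD1305184 (ENSRNOG00000038957, chr18:55666027-55667668), listed by RefSeq as Ifgga4l, was at 0.0913, 34.3 and 0.535 FPKM in M24, M25 and M26, against 0.296, 0.126 and 0.170 FPKM in M21, M22 and M23 and at no more than 1.40 FPKM in the other post-transplant libraries, so that it was high in M25 alone of the 11. Gbp5, Oasl and Oasl2, which encode another guanylate binding protein and members of the oligoadenylate synthetase family, were called with changes of 2.89 ± 0.76, 2.24 ± 0.60 and 2.02 ± 0.54. Gbp5 lost its call with voom (adjusted p = 0.06) and with only the 6 libraries (adjusted p = 0.0695), and Oasl2 without M25 (adjusted p = 0.0535).

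The promoters of 3 of these genes are shown because the list moved together between libraries. Each is the stretch of 300 bases from 250 before to 50 after the gene's start, from RefSeq (GRCr8), on the strand of the gene, with matches to GAAANNGAAA or its reverse complement TTTCNNTTTC in capitals, the core repeat of the interferon-stimulated response element. Their positions are chr1:205799974-205800273 on the minus strand for Irf7, chr2:234005477-234005776 on the plus strand for Gbp2 and chr11:50294557-50294856 on the minus strand for Mx1.
Irf7: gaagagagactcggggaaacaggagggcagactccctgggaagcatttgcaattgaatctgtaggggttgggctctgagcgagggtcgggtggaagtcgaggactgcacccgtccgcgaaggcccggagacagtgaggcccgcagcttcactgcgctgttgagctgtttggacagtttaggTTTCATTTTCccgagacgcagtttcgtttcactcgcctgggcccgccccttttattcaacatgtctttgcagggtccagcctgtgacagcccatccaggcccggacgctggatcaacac
Gbp2: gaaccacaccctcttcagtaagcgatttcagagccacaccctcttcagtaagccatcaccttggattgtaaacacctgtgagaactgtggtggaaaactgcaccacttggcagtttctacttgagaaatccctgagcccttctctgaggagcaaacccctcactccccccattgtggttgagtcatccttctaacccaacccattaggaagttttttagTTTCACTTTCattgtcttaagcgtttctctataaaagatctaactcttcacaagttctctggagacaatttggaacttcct
Mx1: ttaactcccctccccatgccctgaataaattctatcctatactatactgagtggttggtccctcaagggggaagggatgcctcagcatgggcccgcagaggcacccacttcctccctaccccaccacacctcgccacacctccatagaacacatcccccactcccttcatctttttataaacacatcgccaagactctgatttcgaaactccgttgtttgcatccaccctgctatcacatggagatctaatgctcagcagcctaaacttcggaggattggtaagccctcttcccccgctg
Irf7 and Gbp2 each held 1 match, which began 69 and 31 bases before the start, and Mx1 held none in this window. Of the 33 tested interferon-stimulated genes, 24 had a promoter in the table and 17 of these (70.8%) held a match on either strand, against 1034 of all 27457 promoters (3.77%). The genes were listed as interferon targets for what is known of them, and the match is a description of the letters.

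**Figure D3:**
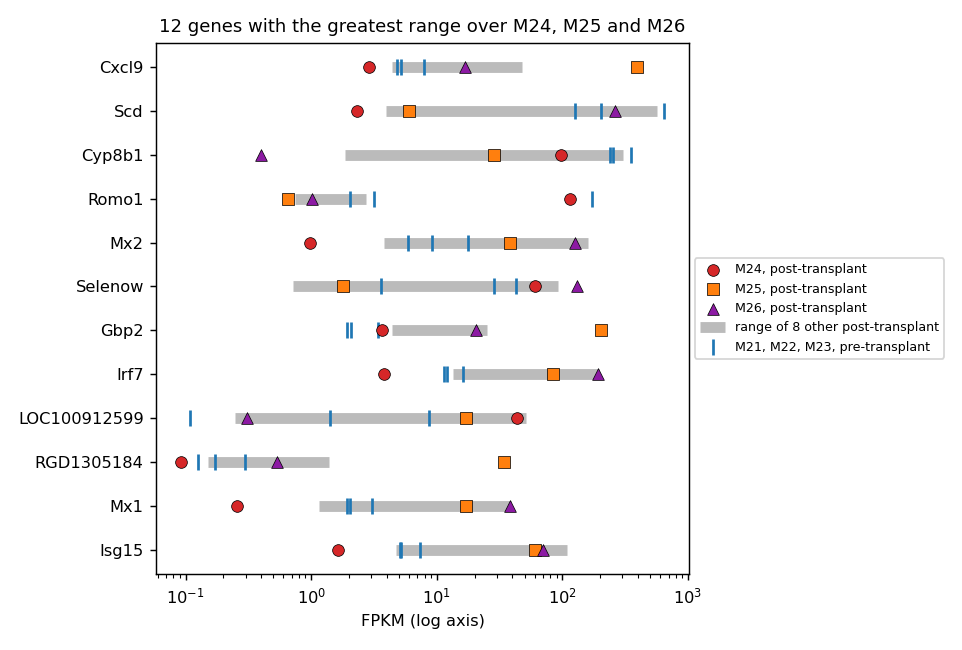
FPKM on a log axis of the 12 genes with the greatest range of log2(FPKM + 1) over M24, M25 and M26 among genes with a mean of at least 10 FPKM there; symbols are the 3 post-transplant libraries, grey bars the range of the 8 others and blue ticks M21, M22 and M23. M24 lies lowest for Cxcl9, Mx2, Irf7, Mx1 and Isg15, M25 highest for Cxcl9, Gbp2 and RGD1305184, and M26 apart for Scd and Cyp8b1.

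Antigen presentation genes rose in 13 of 18 tested members, against 19.2% of all genes, with none lower. The number called was 5 without M25, 8 without M26, 7 without M22 and 7 with only the 6 libraries. M25 was the highest of the 3 for 17 of 18 and M24 the lowest for 17. Psmb10, an immunoproteasome subunit, was at 33.7, 121 and 73.2 FPKM in M24, M25 and M26 and 19.8, 19.8 and 18.4 FPKM in M21, M22 and M23 (change 1.74 ± 0.33, adjusted p = 0.000698), and Tapbp, which loads peptides onto class I molecules, rose by 1.42 ± 0.28. Cd74, the class II invariant chain, was at 76.01, 565 and 205 FPKM in M24, M25 and M26 and 34.1, 29.9 and 34.2 FPKM in M21, M22 and M23 (change 2.63 ± 0.62, adjusted p = 0.00353). The class II gene RT1-Da, of a gene family with close copies, was at 24.7, 109 and 61.8 FPKM in M24, M25 and M26 and 8.45, 6.74 and 7.997 FPKM in M21, M22 and M23 (change 2.69 ± 0.63, adjusted p = 0.00315). For all of these M24 was the post-transplant library nearest to the pre-transplant values. T and NK cell markers moved with them. The filter on low values left 8 of the 25 listed genes, of which 4 rose (1 without M25 or with only the 6 libraries, 2 without M22 or with voom, 8 without M24), and M25 was the highest of the 3 for 7 and of all 11 post-transplant libraries for 7. Cd8a, the co-receptor of cytotoxic T cells, was at 1.87, 27.9 and 3.02 FPKM in M24, M25 and M26 and 0.849, 0.448 and 0.966 FPKM in M21, M22 and M23 (change 1.995 ± 0.65, adjusted p = 0.0226), and Prf1, perforin, at 1.15, 11.4 and 2.96 FPKM in M24, M25 and M26 and 0.991, 1.29 and 0.954 FPKM in M21, M22 and M23 (change 1.19 ± 0.41, adjusted p = 0.0302). M25 stood far above the rest in both, and without it the changes were 0.97 (adjusted p = 0.142) and 0.49 (adjusted p = 0.18). Both calls were also lost with voom (adjusted p = 0.0713 and 0.0676), with only the 6 libraries (0.101 and 0.16) and without M22 (0.0722 and 0.0565), and that of Prf1 without M21 (0.0716) or M23 (0.0754). Lck, a kinase of T cell receptor signalling, rose by 1.07 ± 0.32, and Cd4, which rat macrophages also express, by 1.53 ± 0.43. Lck was not called without M25 (adjusted p = 0.101) or with only the 6 libraries (adjusted p = 0.0563), and Cd4 not without M26 (adjusted p = 0.0562). Summed T and NK marker FPKM were 44.4, 152 and 92.2 in M24, M25 and M26 and 20.4 to 23.3 in M21 to M23, with Pdcd1 listed at 0 in all 6 and Klrb1 in M24 to M26. The part of T and NK cells in the interferon and antigen presentation values was not tested.

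B and plasma cell markers were called higher in 4 of 6, against 19.2% of all genes. Ighm, the constant region of immunoglobulin M, was at 14.8, 11.6 and 5.97 FPKM in M24, M25 and M26 and 0.976, 0.829 and 1.26 FPKM in M21, M22 and M23 (change 2.47 ± 0.34, adjusted p = 7.48e-05), and Jchain, which joins its polymers, rose by 2.12 ± 0.54. Endothelial markers were called higher in 8 of 21 and lower in 1, where 19.2% of all genes were called higher and 37.8% in either direction. The number of endothelial markers called was 4 without M25 or M22 and 5 without M23. Esam and Cdh5, junction proteins of endothelial cells, rose by 1.36 ± 0.23 and 1.32 ± 0.24. Among bile duct markers 7 of 12 were higher and 1 lower, and the number called was 5 without M25 or with long-term survivors in the fit. Krt8 and Krt18, keratins that hepatocytes also express, were at 326, 289 and 525 FPKM in M24, M25 and M26 for Krt8 and 502, 374 and 739 FPKM in M24, M25 and M26 for Krt18, against 91.2, 62.2 and 60.4 FPKM in M21, M22 and M23 for Krt8 and 161, 117 and 101.5 FPKM in M21, M22 and M23 for Krt18. They rose by 2.38 ± 0.43 and 2.05 ± 0.38, with M26 the highest of the 3 in both. Platelet markers rose in 2 of 3, among them Pf4, platelet factor 4, by 2.16 ± 0.39. Of erythroid genes 0 of 7 were higher and 1 was lower (0 without M26, M22 or M23), of mast cell markers 0 of 2 were called, and of adipocyte, pancreas and gut markers 1 of 6, Cela1, was lower. Among muscle and mesothelial markers 1 of 4, Actg2, was higher, and its call was lost without M26 (adjusted p = 0.0665).

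Matrix and proliferation genes rose. Stellate cell, fibroblast and matrix genes were higher in 28 of 32 with none lower (median 1.96), where 19.2% of all genes were higher. Mean log2 levels of the list were 4.30, 4.05 and 4.46 in M24, M25 and M26, against 2.24 to 2.52 in M21 to M23. Single members spread more than that mean, since 13 of 32 (40.6%) spanned over 1 log2 unit across M24 to M26, against 16.1% of all genes. Col4a1, a basement membrane collagen, was at 53.1, 54.2 and 41.8 FPKM in M24, M25 and M26 and 5.95, 4.36 and 7.93 FPKM in M21, M22 and M23 (change 2.86 ± 0.33, adjusted p = 3.13e-05). Dcn, the proteoglycan decorin, was at 32.1, 18.1 and 30.8 FPKM in M24, M25 and M26 and 1.97, 2.34 and 1.86 FPKM in M21, M22 and M23 (change 3.16 ± 0.39, adjusted p = 4.43e-05). Tgfb1, the profibrotic cytokine TGF-beta 1, and Vim, the intermediate filament vimentin, rose by 1.96 ± 0.25 and 3.42 ± 0.44. Cell cycle and DNA replication genes were higher in 30 of 36 with none lower (median 1.88), and M24 was the highest of the 3 for 30 and M26 the lowest for 26. Mcm6, a subunit of the replicative helicase, was at 28.3, 11.7 and 5.13 FPKM in M24, M25 and M26 and 0.452, 0.852 and 0.996 FPKM in M21, M22 and M23 (change 2.91 ± 0.72, adjusted p = 0.00467). The helicase subunit Mcm5 was at 20.9, 9.71 and 6.26 FPKM in M24, M25 and M26 and 0.351, 0.153 and 0.247 FPKM in M21, M22 and M23 (change 3.26 ± 0.75, adjusted p = 0.00291). In both genes the order was M24, M25, M26 from high to low, and the groups did not overlap. Mcm3 and Mcm2 rose by 2.80 ± 0.65 and 2.04 ± 0.51. The number of called cell cycle genes fell to 12 without M24, 18 without M25, 19 without M26, 15 without M21, 15 without M22 and 19 without M23, and was 18 with no filter and 19 with voom. Every tested member had a greater change in M21-M26 than the mean of the other runs, though none passed the test of that difference.

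The acute phase response is the hepatocyte programme set off by interleukin 6. It was higher in 18 of 31 tested members and lower in 2, against 19.2% and 18.6% of all genes. Besides Lcn2 and Wfdc21, Lbp, which presents bacterial lipopolysaccharide to CD14, was at 311, 475 and 395 FPKM in M24, M25 and M26 and 39.7, 50.7 and 46.6 FPKM in M21, M22 and M23 (change 3.07 ± 0.41, adjusted p = 6.81e-05). Spink1, a trypsin inhibitor, was at 74.6, 21.2 and 30.3 FPKM in M24, M25 and M26 and 2.16, 4.20 and 1.31 FPKM in M21, M22 and M23 (change 3.48 ± 0.41, adjusted p = 4.09e-05), with M24 well above M25 and M26. M24 was the highest of the 3 for 23 of 31 members and M25 the lowest for 20. The mean log2 level was 9.82, 8.89 and 9.08 in M24, M25 and M26, 7.43 to 7.58 in M21 to M23 and 8.08 to 10.28 in the other post-transplant libraries, so all 3 lay within the range of the others. Mt2A, a metallothionein induced by zinc and glucocorticoids, was at 2638, 1342 and 1524 FPKM in M24, M25 and M26 and 45.2, 30.4 and 197 FPKM in M21, M22 and M23 (change 4.73 ± 0.97, adjusted p = 0.00134). In the metallothionein and iron list, 6 of 19 were higher and 5 lower. Hmox1, which degrades heme, was at 227, 304 and 90.9 FPKM in M24, M25 and M26 and 11.7, 13.1 and 17.9 FPKM in M21, M22 and M23 (change 3.63 ± 0.38, adjusted p = 2.24e-05). In the other direction Gclc, which makes glutathione, and Cat, catalase, fell, with changes of -1.57 ± 0.25 and -2.80 ± 0.47, and in their list of NRF2 targets and oxidative stress 6 of 24 were higher and 7 lower.

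Genes of the hepatocyte's own functions fell. Hepatocyte secreted proteins were lower in 24 of 30 tested members with none higher (median -1.73), where 18.6% of all genes were lower. Ttr, which carries thyroid hormone and retinol binding protein, was at 2114, 1216 and 2620.5 FPKM in M24, M25 and M26 and 16603, 16804 and 15552 FPKM in M21, M22 and M23 (change -3.11 ± 0.49, adjusted p = 0.0002). Rbp4, that retinol binding protein, was at 1549.7, 866 and 1365 FPKM in M24, M25 and M26 and 4749, 4896 and 4795 FPKM in M21, M22 and M23 (change -1.97 ± 0.25, adjusted p = 4.88e-05). Apoc2, the cofactor of lipoprotein lipase, and Apoh, which binds phospholipids, fell, with changes of -2.36 ± 0.31 and -2.07 ± 0.36. M25 was the lowest of the 3 for 26 of 30 of these genes and the lowest of all 11 post-transplant libraries for 23. The mean log2 level of the list was 8.59, 7.86 and 8.47 in M24, M25 and M26, 9.99 to 10.14 in M21 to M23 and 8.48 to 9.89 in the other post-transplant libraries. The neutrophil and T cell marker sums above were highest in M25 as well, and their part in the low hepatocyte values was not tested.

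Growth hormone responsive and sex-biased genes, among them the male-specific enzymes of rat liver, were lower in 15 of 22 and higher in 2. Over all genes these shares were 18.6% and 19.2%. Cyp2c11 (ENSRNOG00000052810, chr1:257970345-258004434), a cytochrome P450 made chiefly in male rat liver, was at 0.558, 0.558 and 6.97 FPKM in M24, M25 and M26 and 615, 939.6 and 534 FPKM in M21, M22 and M23, a change of -7.98 ± 1.64 (adjusted p = 0.00135). Ca3 (ENSRNOG00000010079, chr2:88126667-88135410), carbonic anhydrase 3, was at 105.5, 4.51 and 23.8 FPKM in M24, M25 and M26 and 2054, 3233 and 3499 FPKM in M21, M22 and M23 (change -6.87 ± 1.20, adjusted p = 0.000431), with M24 the highest and M25 the lowest of the 3. Dhrs7l1 (ENSRNOG00000025648, chr6:95387718-95502845), a dehydrogenase/reductase family gene, was at 0.588, 0.771 and 4.34 FPKM in M24, M25 and M26 and 215, 329 and 281 FPKM in M21, M22 and M23 (change -6.78 ± 1.38, adjusted p = 0.00127). Ghr, the growth hormone receptor, was at 54.2, 37.5 and 57.03 FPKM in M24, M25 and M26 and 232, 267 and 259 FPKM in M21, M22 and M23 (change -2.35 ± 0.35, adjusted p = 0.00014). For all of these the groups did not overlap. The greatest falls also included LOC100360095 (ENSRNOG00000043131, chr8:38150659-38154344) at 0.0844, 0.801 and 4.61 FPKM in M24, M25 and M26 and 3316, 3770.3 and 2234 FPKM in M21, M22 and M23 (change -10.42 ± 1.81, adjusted p = 0.000406). AABR07047899.1 (ENSRNOG00000050117, chr5:52653327-52767592) was listed at 0 in M24 and M25, at 0.183 FPKM in M26 and at 676, 1225 and 610.2 FPKM in M21, M22 and M23 (change -9.56 ± 1.76, adjusted p = 0.000603). On chromosome 5, LOC259244, AABR07048463.1 and AABR07048474.1 fell, with changes of -7.28 ± 1.01, -7.48 ± 1.18 and -6.82 ± 1.12. The rows of LOC259244 and AABR07048474.1 overlap (chr5:77245143-77492013 and chr5:77405142-77903113), so that how reads were divided between them is uncertain.

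Cytochromes P450 and conjugating enzymes were lower in 16 of 35 and higher in 2, against 18.6% and 19.2% of all genes. Sult1e1, which sulfates estrogen, was at 62.1, 10.4 and 56.3 FPKM in M24, M25 and M26 and 1507, 821 and 829 FPKM in M21, M22 and M23 (change -4.87 ± 0.80, adjusted p = 0.000267). Cyp2f4, the glutathione transferase Gsta2 and the male-specific Cyp2c13 fell, with changes of -2.29 ± 0.25, -3.47 ± 0.46 and -3.95 ± 0.61, and the last 2 belong to families with close copies. M26 was the highest of the 3 for 23 of 35 members and M25 the lowest for 23. Bile acid genes were lower in 15 of 23 and higher in 1. Akr1d1, a reductase of bile acid synthesis, was at 153, 90.7 and 204 FPKM in M24, M25 and M26 and 857, 903 and 690.2 FPKM in M21, M22 and M23 (change -2.51 ± 0.34, adjusted p = 7.04e-05), and Nr1h4, the bile acid receptor FXR, was at 13.5, 9.78 and 7.45 FPKM in M24, M25 and M26 and 38.99, 44.8 and 42.4 FPKM in M21, M22 and M23 (change -1.97 ± 0.31, adjusted p = 0.000207). Baat, which conjugates bile acids, and the uptake carrier Slco1a1 fell, with changes of -1.997 ± 0.36 and -2.95 ± 0.41. Cyp8b1 (ENSRNOG00000019481, chr8:130548418-130550388), the sterol hydroxylase that makes cholic acid, was at 97.97, 28.7 and 0.396 FPKM in M24, M25 and M26 and 254, 240.3 and 350.1 FPKM in M21, M22 and M23. M26 was below all other post-transplant libraries (1.86 to 301 FPKM). The change was -4.12 ± 1.30 (adjusted p = 0.0196), and the call was lost without M26 (-2.36, adjusted p = 0.119), without M23 (adjusted p = 0.0547) and with only the 6 libraries (adjusted p = 0.0624). Nr0b2, the receptor SHP, which represses bile acid synthesis genes in mouse, was at 2.02, 2.28 and 38.6 FPKM in M24, M25 and M26, against 11.3, 17.6 and 22.6 FPKM in M21, M22 and M23. Among M24, M25 and M26 the library with the least Cyp8b1 had the most Nr0b2, which is 1 library and no test. M21, M22 and M23 had more of both genes than M24 and M25. Whether the levels of these genes are linked was not tested.

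Many lipid genes fell, and M26 stood apart from M24 and M25 in Scd and Fads2. Fatty acid oxidation genes and targets of the nuclear receptor PPARA were lower in 26 of 37 and higher in 1, against 18.6% and 19.2% of all genes. Mean log2 levels of this list were 5.04, 5.05 and 5.01 in M24, M25 and M26, against 6.06 to 6.62 in M21 to M23. Acadm, the medium-chain acyl-CoA dehydrogenase, was at 92.02, 78.01 and 106.1 FPKM in M24, M25 and M26 and 453, 480.2 and 470.2 FPKM in M21, M22 and M23 (change -2.34 ± 0.34, adjusted p = 0.000103). Bdh1, of ketone body metabolism, was at 26.6, 24.3 and 34.8 FPKM in M24, M25 and M26 and 179, 283 and 303 FPKM in M21, M22 and M23 (change -3.10 ± 0.40, adjusted p = 5.76e-05). Decr1 and Acads, enzymes of beta-oxidation, fell, with changes of -1.89 ± 0.23 and -1.54 ± 0.22. Fatty acid and triglyceride synthesis genes were lower in 13 of 24 and higher in 1, Scd2, with 9 called in all without M25 or without M21. Elovl5, a fatty acid elongase, and Dgat2, which makes triglyceride, fell, with changes of -2.18 ± 0.37 and -1.53 ± 0.28. Pklr, the liver pyruvate kinase, was at 3.25, 5.81 and 9.36 FPKM in M24, M25 and M26 and 40.6, 70.4 and 69.4 FPKM in M21, M22 and M23 (change -3.15 ± 0.62, adjusted p = 0.00104). Scd (ENSRNOG00000013552, chr1:264160129-264172729), the desaturase that makes oleic acid, was at 2.31, 5.999 and 262 FPKM in M24, M25 and M26 and 201, 648 and 125 FPKM in M21, M22 and M23. Its change of -3.80 ± 1.53 (adjusted p = 0.0603) did not pass, and without M26 it did (-5.73, adjusted p = 0.00573). Fads2, another desaturase, was at 9.08, 11.8 and 203 FPKM in M24, M25 and M26 and 347, 284 and 370.2 FPKM in M21, M22 and M23 (change -3.48 ± 0.94, adjusted p = 0.00811). For Scd M26 lay within the pre-transplant range and for Fads2 below it but nearest to it, while M24 and M25 were far below in both. Hsd17b13, a lipid droplet protein, was at 72.5, 36.3 and 26.6 FPKM in M24, M25 and M26 and 410.5, 488 and 436 FPKM in M21, M22 and M23 (change -3.39 ± 0.33, adjusted p = 1.23e-05), and Fabp1, the fatty acid carrier of hepatocytes, fell, with a change of -2.69 ± 0.44. Lpl, lipoprotein lipase, rose by 3.14 ± 0.41. Their list of lipid droplet and lipid uptake genes had 6 of 26 higher and 13 lower.

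Cholesterol synthesis genes were lower in 6 of 25 with none higher, a share near the 18.6% of all genes, and M25 was the lowest of the 3 for 24 of 25 and M26 the highest for 18. Nsdhl and Sc5d, enzymes of late cholesterol synthesis, fell, with changes of -1.88 ± 0.30 and -1.45 ± 0.45. Hmgcs1, which makes the precursor of mevalonate, was at 74.9, 37.7 and 143 FPKM in M24, M25 and M26 and 337, 337 and 349 FPKM in M21, M22 and M23 (change -2.19 ± 0.72, adjusted p = 0.0238). Its call was lost without M25 (adjusted p = 0.116), M21 (0.0535), M22 (0.0586) or M23 (0.0561), and that of Sc5d without M25 (0.101) or M21 (0.0599). The count of 6 moved to 1 without M25 or without M21, 3 without M23, 10 without M26, 11 with only the 6 libraries, 12 with long-term survivors in the fit, and 13 without M6 or M7.

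Mitochondrial genes fell, with a median change of -0.75 for nuclear genes of the respiratory chain and -1.18 for mitochondrially encoded genes. Of nuclear genes of the respiratory chain 28 of 33 were lower, of which 2 reached a 2-fold change (7.81% of all genes did so in this direction), and of the mitochondrially encoded genes 12 of 13. The count of nuclear genes was 16 without M25, 18 without M22 and 17 with only the 6 libraries. Sdha, the flavoprotein of complex II, was at 81.8, 57.7 and 71.1 FPKM in M24, M25 and M26 and 149.8, 182 and 152 FPKM in M21, M22 and M23 (change -1.20 ± 0.20, adjusted p = 0.000289). Ndufb8, a complex I subunit, was at 79.3, 73.8 and 70.8 FPKM in M24, M25 and M26 and 136, 147 and 130.3 FPKM in M21, M22 and M23 (change -0.88 ± 0.13, adjusted p = 0.00016). Mt-nd4 and Mt-nd5, complex I subunits of the mitochondrial genome, fell, with changes of -1.61 ± 0.32 and -1.36 ± 0.27. M24 was the highest of the 3 for 31 of 33 nuclear and 13 of 13 mitochondrially encoded genes, against 37.2% of all genes. M25 was the lowest of all 11 post-transplant libraries for 10 of the 13 mitochondrially encoded genes. Urea cycle and amino acid catabolism genes were lower in 11 of 29 with none higher. Of all genes 18.6% were called lower and 37.8% in either direction. M24 was the highest of the 3 for 26 of the urea cycle and catabolism genes and M25 the lowest for 25. Their mean log2 level was 7.19, 5.75 and 6.29 in M24, M25 and M26, and 6.88 to 7.73 in M21 to M23, so that M24 lay within the pre-transplant range. Haao, of tryptophan breakdown, was at 94.6, 44.2 and 72.3 FPKM in M24, M25 and M26 and 222, 245 and 219 FPKM in M21, M22 and M23 (change -1.75 ± 0.29, adjusted p = 0.000263), and Ddc, aromatic amino acid decarboxylase, fell, with a change of -2.98 ± 0.47. Leap2 (ENSRNOG00000007218, chr10:38771126-38774449), a liver peptide that blocks the ghrelin receptor, was at 239, 35.6 and 17.5 FPKM in M24, M25 and M26 and 594, 549 and 361 FPKM in M21, M22 and M23 (change -3.17 ± 0.71, adjusted p = 0.00247). Nrg4, a growth factor of the ErbB4 receptor, was at 52.8, 3.81 and 1.19 FPKM in M24, M25 and M26 and 5.36, 6.80 and 3.37 FPKM in M21, M22 and M23 (change 0.46 ± 0.74, adjusted p = 0.661). In both, M24 stood above M25 and M26, and for Nrg4 above every pre-transplant library of the run.

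Circadian clock genes, the transcription factors that keep daily time, were lower in 6 of 17 with none higher (median -0.57). The share called in either direction was near the 37.8% of all genes, of which 18.6% were called lower. Npas2, an activator of the clock, was at 0.362, 1.23 and 3.20 FPKM in M24, M25 and M26 and 5.68, 5.59 and 4.94 FPKM in M21, M22 and M23 (change -1.45 ± 0.31, adjusted p = 0.00162). Hlf, an output factor of the clock, was at 4.44, 2.76 and 0.934 FPKM in M24, M25 and M26 and 14.6, 11.6 and 11.3 FPKM in M21, M22 and M23 (change -1.98 ± 0.44, adjusted p = 0.00224). Clock and Bhlhe40 had changes of -0.57 ± 0.15 (adjusted p = 0.0072) and -1.78 ± 0.47 (adjusted p = 0.0075). M24 was the highest of the 3 for 11 of 17.

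Glycolysis and hypoxia genes rose in 15 of 26 and fell in 3, and M25 was the highest of the 3, and of all 11 post-transplant libraries, for 19. Pkm, the pyruvate kinase of non-hepatocyte and proliferating cells, was at 54.9, 197 and 51.8 FPKM in M24, M25 and M26 and 3.14, 2.87 and 4.47 FPKM in M21, M22 and M23 (change 4.23 ± 0.59, adjusted p = 8.20e-05). Aldoa, an aldolase of glycolysis, was at 123, 247 and 104.2 FPKM in M24, M25 and M26 and 27.3, 23.2 and 25.9 FPKM in M21, M22 and M23 (change 2.49 ± 0.31, adjusted p = 4.97e-05). Hk3, a hexokinase of myeloid cells, and Ndrg1, a hypoxia-induced gene, rose by 2.64 ± 0.42 and 2.03 ± 0.35. Myeloid cells express several of these genes, and the part of the leukocyte markers in them was not tested. Of gluconeogenesis and fasting genes 1 of 20 was higher and 3 lower, and in all 1 was called without M25 and 2 without M22. G6pc, glucose 6-phosphatase, was at 11.9, 21.4 and 69.2 FPKM in M24, M25 and M26 and 245, 78.6 and 193 FPKM in M21, M22 and M23 (change -2.52 ± 0.77, adjusted p = 0.0163), with M26 the highest of the 3. The call was lost without M24 (adjusted p = 0.075), M25 (0.0553), M21 (0.0645) or M23 (0.0511). Of heat shock genes 4 of 16 were higher and 1 lower, and in all 2 were called without M25 or with only the 6 libraries, 3 without M22 and 8 without M21. Of unfolded protein response genes 0 of 24 were higher and 4 lower, with 2 called without M25, M21 or M22. Of p53 targets and apoptosis genes 6 of 16 were higher and 0 lower, with 2 called without M25. Of immediate early genes 7 of 25 were higher and 1 lower. In none of these 5 lists was the share called in either direction above the 37.8% of all genes. By direction, 19.2% of all genes were called higher and 18.6% lower. Hspb1, a small heat shock protein, was at 23.6, 88.1 and 22.1 FPKM in M24, M25 and M26 and 10.1, 7.23 and 5.91 FPKM in M21, M22 and M23 (change 2.11 ± 0.40, adjusted p = 0.000732). Ccn2, a matrix-associated growth factor, and Gadd45b, a stress-induced gene, rose by 1.85 ± 0.22 and 3.03 ± 0.51.

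The spread between the 3 post-transplant libraries was wider than between the 3 pre-transplant ones. The median range of log2(FPKM + 1) was 0.482 over M24, M25 and M26 and 0.293 over M21, M22 and M23, and 2060 genes (16.1%) against 751 (5.86%) spanned more than 1 log2 unit. In the other title runs with 3 post-transplant libraries this share was 20.6% (M8-M13) and 11.1% (M15-M20). Root mean square distances between M24, M25 and M26 were 0.585 to 0.666 log2 units, those between M21, M22 and M23 were 0.397 to 0.442, and those between the 2 groups 0.957 to 1.22. The libraries were not closest to their own run. M24 was nearest to M13 (0.476), M25 to M6 (0.529) and M26 to M18 (0.453), each nearer than to any post-transplant library of M24 to M26. M25 was the highest of the 11 post-transplant libraries for 14.3% of genes and the lowest for 11.8%, against 8.96% and 9.59% for M24 and 5.16% and 6.03% for M26. Without M25 the number of genes called in the change was 3457, the lowest count over all libraries left out in turn. The next lowest was 3516, without the pre-transplant library M22.

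Several genes with a wide range behaved as present in some libraries and near 0 in others. Romo1 was at 114, 0.659 and 1.02 FPKM in M24, M25 and M26 and 2.02, 3.17 and 171 FPKM in M21, M22 and M23. Selenow was at 60.98, 1.78 and 130.1 FPKM in M24, M25 and M26 and 28.6, 3.62 and 42.9 FPKM in M21, M22 and M23. LOC100912599 was at 43.1, 17.1 and 0.305 FPKM in M24, M25 and M26 and 0.108, 1.41 and 8.66 FPKM in M21, M22 and M23. Such jumps occurred among the pre-transplant libraries too. Whether reads of these genes were shared with a near-identical copy was not tested, and their levels are uncertain. The same holds for Tbcb, LOC100912380, LOC100911186 and Rplp2, which stood among the genes farthest from their run-mates.

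The second comparison asked what set M21-M26 apart from the other title runs. The change in M21-M26 differed from the mean change of the other runs for 1 gene of 12820 (0.0078%) at an adjusted p under 0.05 by limma, where 1595 (12.4%) had an unadjusted p under 0.05, and voom called 0, with 1353 at an unadjusted p under 0.05. That gene was Plscr1 (ENSRNOG00000008048, chr8:99625545-99725217), a phospholipid scramblase that interferon induces in human cells. It was at 12.8, 11.3 and 11.3 FPKM in M24, M25 and M26 and 0.926, 0.844 and 0.917 FPKM in M21, M22 and M23, a change of 2.76 ± 0.17 (adjusted p = 1.48e-07). In the other runs post-transplant values were 10.996 and 10.3 FPKM (M6 and M7), 5.52, 4.09 and 7.39 FPKM (M11, M12 and M13) and 5.51, 4.16 and 4.24 FPKM (M18, M19 and M20). Their pre-transplant values were 0.998 to 3.88 FPKM. M24, M25 and M26 thus lay just above the highest of the other post-transplant libraries, and M21, M22 and M23 below every other pre-transplant library. The changes differed by 1.42 log2 units (adjusted p = 0.0299). Over 33 alternatives the difference kept its direction, from 0.98 to 1.95, and was called in 15, with adjusted p from 0.00555 to 0.879, the highest when M15-M20 was left out of the other runs. In place of 1595 genes at an unadjusted p under 0.05 there were 578 without M15-M20, 944 without M20 and u2, 851 without M25, 953 without M22 and 2448 without M13. M24, the lowest in interferon-stimulated genes, had the highest Plscr1 of the run. Its promoter (RefSeq, GRCr8, chr8:101663871-101664170, plus strand) is shown because this was the single gene called, and it held no match to GAAANNGAAA or TTTCNNTTTC in this window.
Plscr1: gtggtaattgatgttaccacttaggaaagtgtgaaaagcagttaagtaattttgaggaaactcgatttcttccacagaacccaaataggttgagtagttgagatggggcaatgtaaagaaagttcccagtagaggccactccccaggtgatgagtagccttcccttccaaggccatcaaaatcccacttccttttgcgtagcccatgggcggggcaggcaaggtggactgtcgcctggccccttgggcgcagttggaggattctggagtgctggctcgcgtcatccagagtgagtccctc

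**Figure D4:**
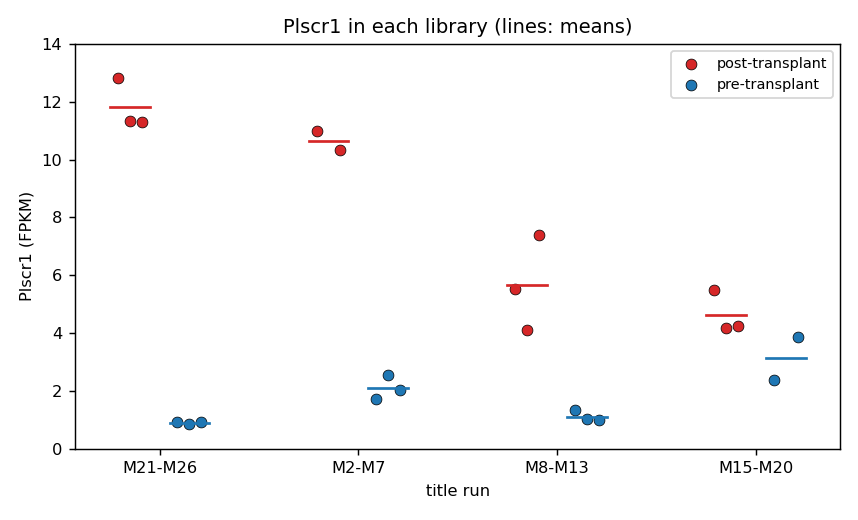
Plscr1 in FPKM in each library by title run; points are libraries, lines are means, post-transplant in red at the left of each pair and pre-transplant in blue at the right. M24, M25 and M26 lie at 11.3 to 12.8 FPKM, just above M6 and M7, and M21, M22 and M23 lie at 0.844 to 0.926 FPKM.

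The lists are given by counts and medians, with no test of a list. Members of a list can move together, and the lists were chosen with earlier results of these data known. Their counts are thus a description and no support. Of 36 cell cycle genes 36 had a greater change in M21-M26 than the mean of the other runs (median difference 1.08), of 12 neutrophil markers 12 (median 1.27), of 30 hepatocyte secreted proteins 1 (median -0.97), and of 25 cholesterol synthesis and 13 mitochondrially encoded genes 0 (medians -0.91 and -0.60). By level the cell cycle list overlapped between runs, with mean log2 levels of 3.49, 2.98 and 2.72 in M24, M25 and M26, against 0.99 to 4.05 in the other post-transplant libraries, M13 the highest. Over all genes 52.1% had a greater change and the median difference was 0.021. Neutrophil markers had median changes of 3.11 in M21-M26, against 2.08 in M2-M7, 1.89 in M8-M13 and 1.20 in M15-M20. Hepatocyte secreted proteins had -1.73, against -0.98, -0.83 and -0.14. Interferon-stimulated genes had 1.17, against 0.067, 0.19 and 1.17, so that M15-M20 had the same median as M21-M26 in these. Of the members of these lists, none was called by the test of the difference.

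**Figure D5:**
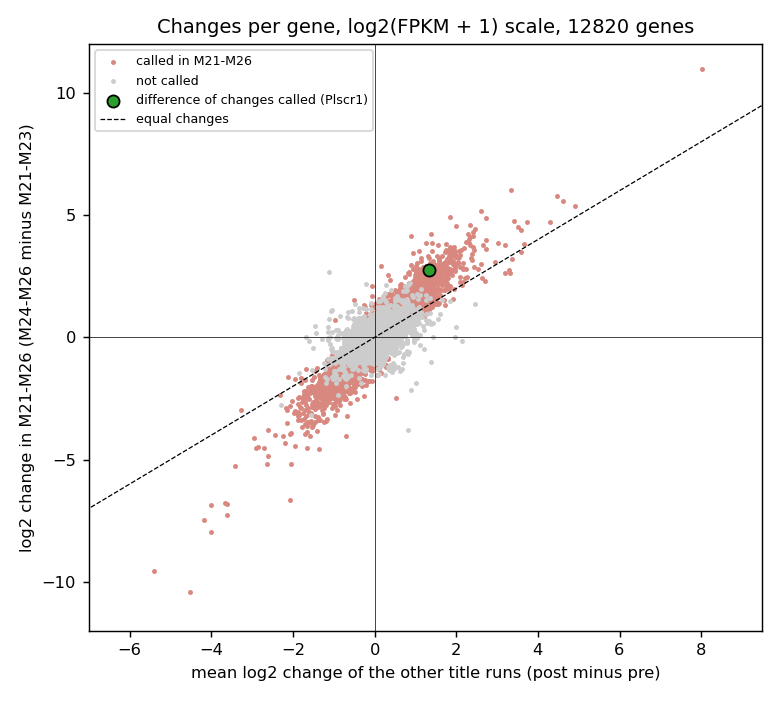
Log2 change in M21-M26 (vertical) against the mean log2 change of the other title runs (horizontal) for 12820 genes, each a point; red points were called in M21-M26 and the dashed line marks equal changes. Called genes, which were chosen by the vertical value, lie mostly on the same side of 0 in both, and Plscr1 is the only gene whose difference was called.

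Set directly against the other post-transplant livers, M24 to M26 differed in 0 genes (0%) by limma, with 1602 at an unadjusted p under 0.05 (12.5%), and in 0 by voom, with 1774. The 1602 became 544 without M25 and 2614 without M13. Without M13 limma called 46 genes and without M24 2. In 66 genes (0.515%) all of M24, M25 and M26 lay above all 8 other post-transplant libraries, and in 63 (0.491%) below them. The same counts were not made for other sets of 3 post-transplant libraries, so they do not show that M24 to M26 stand apart. The genes named here were chosen after their values were seen, and none passed the test. Among those below were 3 of 17 circadian clock genes. Per2, a repressor of the clock, was at 2.95, 2.65 and 1.42 FPKM in M24, M25 and M26 against 3.14 to 7.38 FPKM in the others, its paralog Per3 at 1.26, 0.563 and 0.702 FPKM in M24, M25 and M26 against 1.45 to 4.88 FPKM, and Tef, a clock output transcription factor, at 6.77, 5.20 and 4.08 FPKM in M24, M25 and M26 against 7.34 to 19.3 FPKM. Per2 was at 13.9, 4.73 and 2.83 FPKM in M21, M22 and M23, a wider span than in M24 to M26. The labels give no time of day. Ppara, the nuclear receptor of fatty acid oxidation, was at 5.47, 6.65 and 3.69 FPKM in M24, M25 and M26 against 7.63 to 22.2 FPKM, and its target Acaa1a, a peroxisomal thiolase, at 43.6, 38.2 and 61.02 FPKM in M24, M25 and M26 against 63.6 to 188 FPKM. Both were also called in the change within the run, at -2.07 ± 0.40 and -2.24 ± 0.35. Slco2a1, a prostaglandin transporter, was at 21.5, 10.7 and 25.1 FPKM in M24, M25 and M26 against 29.2 to 114 FPKM, and Proc, which encodes the anticoagulant protein C, at 119.6, 89.7 and 117 FPKM in M24, M25 and M26 against 122 to 269 FPKM. Among those above, Jdp2, a repressor of AP-1, was at 12.3, 17.8 and 16.8 FPKM in M24, M25 and M26 against 3.31 to 11.5 FPKM, and Fos, a subunit of AP-1, at 13.9, 10.7 and 9.52 FPKM in M24, M25 and M26 against 2.87 to 8.97 FPKM. Msr1, the macrophage scavenger receptor, was at 17.4, 18.4 and 21.9 FPKM in M24, M25 and M26 against 9.59 to 15.8 FPKM, and Mest, an imprinted gene, at 15.3, 14.9 and 15.2 FPKM in M24, M25 and M26 against 4.06 to 13.6 FPKM. Such gaps were narrow for several genes. Proc was at 119.6 FPKM in M24 and 122 FPKM in the lowest other library, and Acaa1a at 61.02 FPKM in M26 and 63.6 FPKM. Fos was at 9.52 FPKM in M26 and 8.97 FPKM in the highest other library.

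The pre-transplant livers of the run were compared in the same way. M21 to M23 differed from the other pre-transplant livers in 0 genes (0%) by limma, with 606 at an unadjusted p under 0.05 (4.73%), and in 0 by voom, with 535. The 606 became 1229 without u1, 389 without u2 and 323 without M22. When M8-M13 was left out of the other runs limma called 11. The median size of a gene's difference was 0.129 log2 units for the pre-transplant and 0.17 for the post-transplant comparison.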

How the data were processed

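RNA sequencing libraries of polyadenylated RNA from rat liver were analysed from 1 gene table. It holds FPKM that the authors deposited, already divided by gene length and library size. HISAT2 2.0.5 is listed in the submitters' processing notes, which also list Rnor_6.0 beside mm10 as genome builds and do not say what each served for. How reads were counted, with which annotation release and whether by strand is not given in the sources used here. Of 32 value columns 2 were not used, because 1 header stands on both of them. Another header stands on 2 columns of the same group, which entered as unnumbered pre-transplant libraries of M15-M20 (u1 and u2). FPKM steps gave whole reads for 100% of values of up to 5000 reads (tolerance 0.02 read), from which depth and the authors' scaling factors were taken.

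Genes with an Ensembl ID and at least 1 FPKM in at least 3 of 22 pre- and post-transplant libraries were tested with limma 3.58.1 in R 4.3.3 on log2(FPKM + 1), with 1 mean for each of 8 cells of group and title run, a trend and robust variances, two-sided, with Benjamini-Hochberg adjustment over 12820 genes and a threshold of 0.05. The other runs enter with 1 weight per run. Named genes are, per comparison, the 8 greatest called rises and 8 greatest falls whose groups do not overlap, up to 4 genes of each of 39 lists by adjusted p, and, for spread, the 12 greatest ranges and 4 genes per library and direction; others are named as chosen after their values were seen, and markers listed at 0 or used to check a list are named as such. The members and the lists were chosen with earlier results of these data known. Alternatives were no filter, a pseudocount of 0.1, scaling by median-of-ratios factors, no trend, long-term survivors in the fit, voom on recovered reads, a 2-fold threshold, only the 6 libraries, each other title run left out, 1 weight per library, and each library left out in turn. The contrasts and the limma fit were run on simulated log2 values with known changes. That run did not cover the filter, the scaling, voom, the lists or the reading of the gene table. Summaries and plots used Python 3.11.15, pandas 2.3.3 and matplotlib 3.10.9.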

Additional observations from a re-analysis of the deposited data

Results flagged for a closer look

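Plscr1 was the single gene whose change in M21-M26 differed from the mean change of the other title runs by the test of that difference, by 1.418 log2 units (limma, adjusted p = 0.0299). It was at 12.8, 11.3 and 11.3 FPKM in M24, M25 and M26 and 0.926, 0.844 and 0.917 FPKM in M21, M22 and M23. The post-transplant values of M24 to M26 differed from those of the other runs by 0.77 log2 units (adjusted p = 0.341) and the pre-transplant values of M21 to M23 by -0.65 (adjusted p = 0.55), and neither passed.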

How the results depend on the processing

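The change within M21-M26 was called in 4845 genes. The count lay between 4215 and 5262 with another pseudocount, filter, added scaling, variance model, library set or test. With a 2-fold threshold it was 2460, by construction, and with libraries left out in turn 3457 to 5081. No alternative replaced the authors' own scaling, which median-of-ratios factors left nearly as it was and voom also used. That scaling was thus not tested. The difference from the other runs was called in 1 gene; the count was 2 with no filter, 0 with long-term survivors in the fit, 0 with voom, 7 without M8-M13, 0 without M15-M20, 0 without M20 and u2, and 0 to 6 with libraries left out in turn, 6 without u1. Of the post-transplant comparison 3 genes were called with no filter, 1 without M2-M7, and 0 to 46 with libraries left out in turn. Of the pre-transplant comparison 6 were called with no filter, 1 with long-term survivors in the fit, 11 without M8-M13, and 0 to 2 with libraries left out in turn. The cause was not tested. The share of genes with a range over 1 log2 unit in M24 to M26 was 24.95% with a pseudocount of 0.1 and 10.47% with no filter, and 7.473% to 9.867% with 1 of the 3 left out, where the range covers fewer libraries. Of 153 named genes called in the change, 32 lost the call in some alternative, 24 of them in one other than leaving out a library. Lipo1 was not called with all libraries (log2 change 0.03); it was called lower without M24 at -1.281, and libraries left out in turn gave -1.281 to 0.9893. Leaving out M20 and u2, or 1 of the other 16 libraries, was added after seeing the data; where this leaves 1 library in a cell it is assumed to vary like the rest. Genes at 1 FPKM in fewer than 3 libraries were not tested. No paired analysis was possible because the labels and headers give the groups no shared replicate numbers, and numbers given in accession order pair nothing.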
